A study of Mus musculus with 52 samples.

Results

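The comparison described here sets male mice that carried human APOE4 and ate a Western diet against male mice that carried human APOE3 and ate chow, so that the risk allele and the diet change together. It uses 11 of the 52 frontal cortex libraries of the series: all 5 labelled APP/E4, HFD and male, and all 6 labelled APP/E3, ND and male. The libraries were picked by their labels, and the 15195 genes that passed a filter on low counts were tested. Both groups were made by breeding APP/PS1ΔE9 mice to targeted replacement mice, homozygous for APOE3 or for APOE4, so the chow-fed APP/E3 controls also bear the transgenes that drive amyloid plaques. ND was Prolab Isopro RMH 3000 chow. HFD was the D12079B Western Diet, whose calories were 42.6% carbohydrate, 16.8% protein and 40% fat, the fat being anhydrous milk fat with corn oil. Feeding began when mice were 3.5 months old on average and ran for 3 months, and behaviour was tested at 14.7 months on average; the labels do not say how these ages fit together, nor the age of single animals. The remaining 12 male libraries (6 APP/E4 on ND, 6 APP/E3 on HFD) and the matching females (7 APP/E4 on HFD, 7 APP/E3 on ND) served to place the difference.

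Apolipoprotein E, made mostly by astrocytes and by microglia, carries cholesterol and phospholipid between brain cells, and the E4 form is the main common genetic risk factor for late-onset Alzheimer's disease. Microglia that gather around amyloid plaques switch on Trem2-dependent genes such as Itgax, Cst7 and Clec7a, and astrocytes near plaques switch on Gfap and Serpina3n. A diet rich in milk fat raises blood lipids and is commonly used in mice to model midlife metabolic risk.

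Total counts were 6.0 to 39.4 M (median 10.2 M) in the APP/E3 ND males and 8.87 to 10.9 M (median 9.05 M) in the APP/E4 HFD males, and levels are given as CPM, counts scaled to each library's total. Markers of cortical excitatory neurons were abundant in all 11 libraries: Slc17a7, the vesicular glutamate transporter, was at 1402 CPM or more in the ND group and at 1164 CPM or more in the HFD group, and Tbr1, a cortical transcription factor, was at 133 CPM or more and at 115 CPM or more. Xist was at most at 1.89 CPM in the 11 libraries, against means of 602 and 871 CPM in the female groups. Mouse Apoe counts do not separate the human gene and so do not check the genotype labels. In bulk tissue, fewer cells of a type and less RNA per cell cannot be told apart. The labels call each library a separate sample without saying how animals were housed or handled together. P-values therefore measure the spread between libraries, which the main fit estimated over all 52 of the series, not the 11 alone. Some libraries stood apart. APP/E3 ND male 3 had high levels of genes of the olfactory mucosa, APP/E4 HFD male 3 had the highest levels of many microglial genes, and APP/E3 ND male 2 lay farthest from its group over all genes (root mean square log2 distance 0.407, against 0.333 for APP/E4 HFD male 3 and 0.157 to 0.267 for the other 9).

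Of 15195 genes tested with edgeR's quasi-likelihood test, 92 passed an adjusted p of 0.05, or 0.605% of genes: 45 rose (0.296%) and 47 fell (0.309%) in the APP/E4 HFD males. The median absolute change of the called genes was 0.62 on the log2 scale, 39 of them changed by more than 1 (20 up and 19 down), and 43 changed by less than 0.5. In 56 of the 92 the levels of the groups did not overlap, which was so for 275 of all tested genes (1.81%). The calls comprised differences of very large size in a few chromosome regions, Hccs and the 4 Y-linked genes, a few plaque-associated microglial genes, 13 genes of olfactory mucosa that were high in 1 control library, and many small changes. Of these calls, 28 held in all 11 fits that each left out 1 library (21 up and 7 down), and the number of calls in those fits ran from 35 to 120. It was 59 and 46 without APP/E3 ND males 2 and 3, and 59, 42, 59 and 35 without APP/E4 HFD males 1, 2, 4 and 5, against 120 without APP/E4 HFD male 3 and 71 to 86 without any 1 of the other 4.

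**Figure D1:**
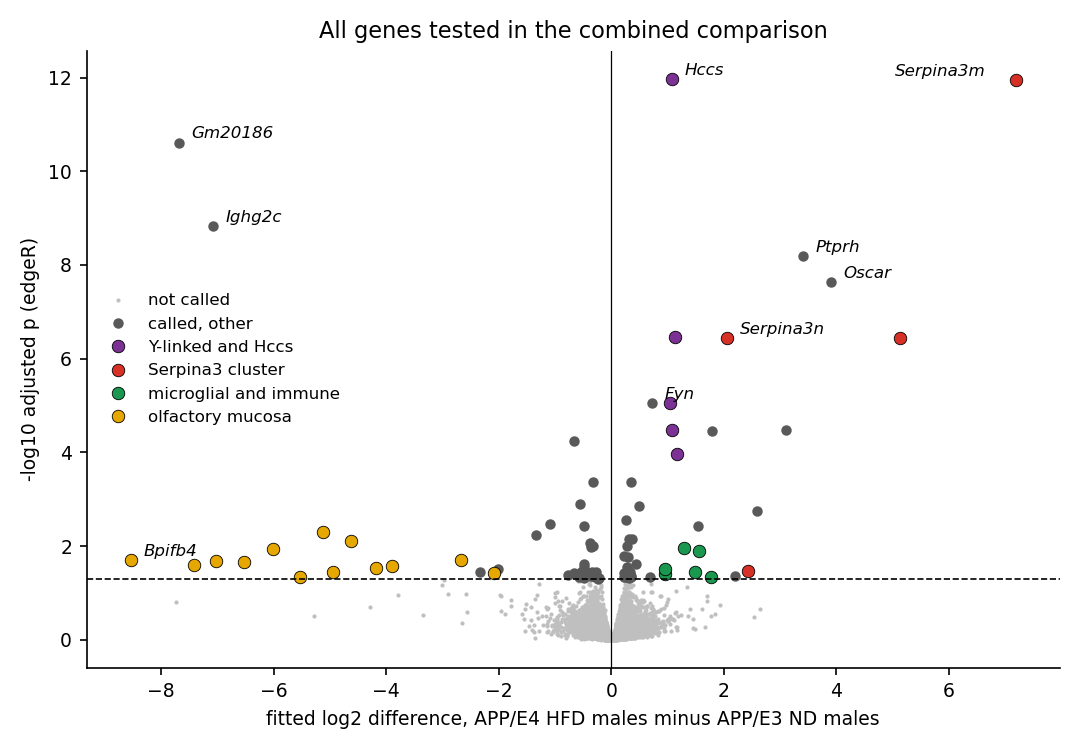
Each point is 1 of 15195 tested genes, with its fitted log2 difference (APP/E4 HFD males minus APP/E3 ND males) on the x axis and -log10 of its edgeR adjusted p on the y axis; points above the dashed line (adjusted p of 0.05) are the 92 called genes, coloured by the groups described in the text. Hccs and Serpina3m stand highest on the right, Gm20186 and Ighg2c on the left, and the 13 olfactory mucosa genes lie far left just above the line.

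The call with the smallest p was Hccs, the X-linked holocytochrome c synthase that attaches heme to mitochondrial cytochrome c (gene ID 15159). Hccs ran from 22.7 to 29.8 CPM (median 26.8) in the APP/E3 ND males and was at 59.0, 58.7, 50.4, 51.99 and 62.2 CPM in the APP/E4 HFD males. Each of the 5 lay above all 6 controls. The means were 26.4 ± 3.2 (SD, n = 6) and 56.5 ± 5.0 (SD, n = 5), a log2 difference of 1.09 ± 0.09 (SE; edgeR adjusted p = 1.06e-12). In females the same contrast gave 27.6 ± 2.7 against 29.4 ± 3.8 CPM (n = 7 each), or 0.08 ± 0.08. Hccs was the 1 gene of 15195 (0.00658%) whose difference was called different between the sexes, by 1.01 ± 0.12 (males minus females, edgeR adjusted p = 3.86e-07). DESeq2 called 7 genes for this contrast.

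All 4 Y-linked genes in the tested set rose by about as much. Ddx3y, an RNA helicase (gene ID 26900), ran from 59.0 to 77.6 CPM (median 72.6) in APP/E3 ND males and stood at 156, 157, 137, 145 and 161 CPM in APP/E4 HFD males, a difference of 1.09 ± 0.16 (SE; edgeR adjusted p = 3.39e-05). Kdm5d, a histone H3 lysine demethylase, ran from 17.1 to 23.3 CPM (median 20.1) and was at 41.7, 41.8, 39.8, 41.7 and 40.9 CPM, a difference of 1.04 ± 0.15 (adjusted p = 9.02e-06). Neither gene's groups overlapped. Eif2s3y, a subunit of the translation initiation factor that brings the initiator tRNA, went from a mean of 28.7 ± 3.2 to 63.3 ± 14 CPM (1.14 ± 0.14, adjusted p = 3.37e-07), and Uty, a JmjC-domain protein related to Kdm6a, from 17.7 ± 2.5 to 39.5 ± 5.4 CPM (1.16 ± 0.18, adjusted p = 0.000106). The groups did not overlap in these either. Females lack a Y chromosome, so the test of males minus females could not assess the Y-linked genes. The X-linked homologs gave differences near 0: Ddx3x 0.02 ± 0.09, Kdm5c 0.12 ± 0.08, Kdm6a 0.08 ± 0.11 and Eif2s3x 0.06 ± 0.14, none called. The X-linked genes next to Hccs in the gene order did not pass the test: Msl3, part of the dosage compensation complex in flies, differed by 0.03 ± 0.09, Arhgap6, an activator of small GTPases, by 0.12 ± 0.44, and Mid1, a microtubule-associated ubiquitin ligase, by -0.13 ± 0.33. By GENCODE transcripts, no stretch of 50 bases in the Hccs or Eif2s3y transcripts occurs in another gene's transcripts. Of those of Ddx3y 0.0385% do, as do 1.985% of Uty and 2.27% of Kdm5d.

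**Figure D2:**
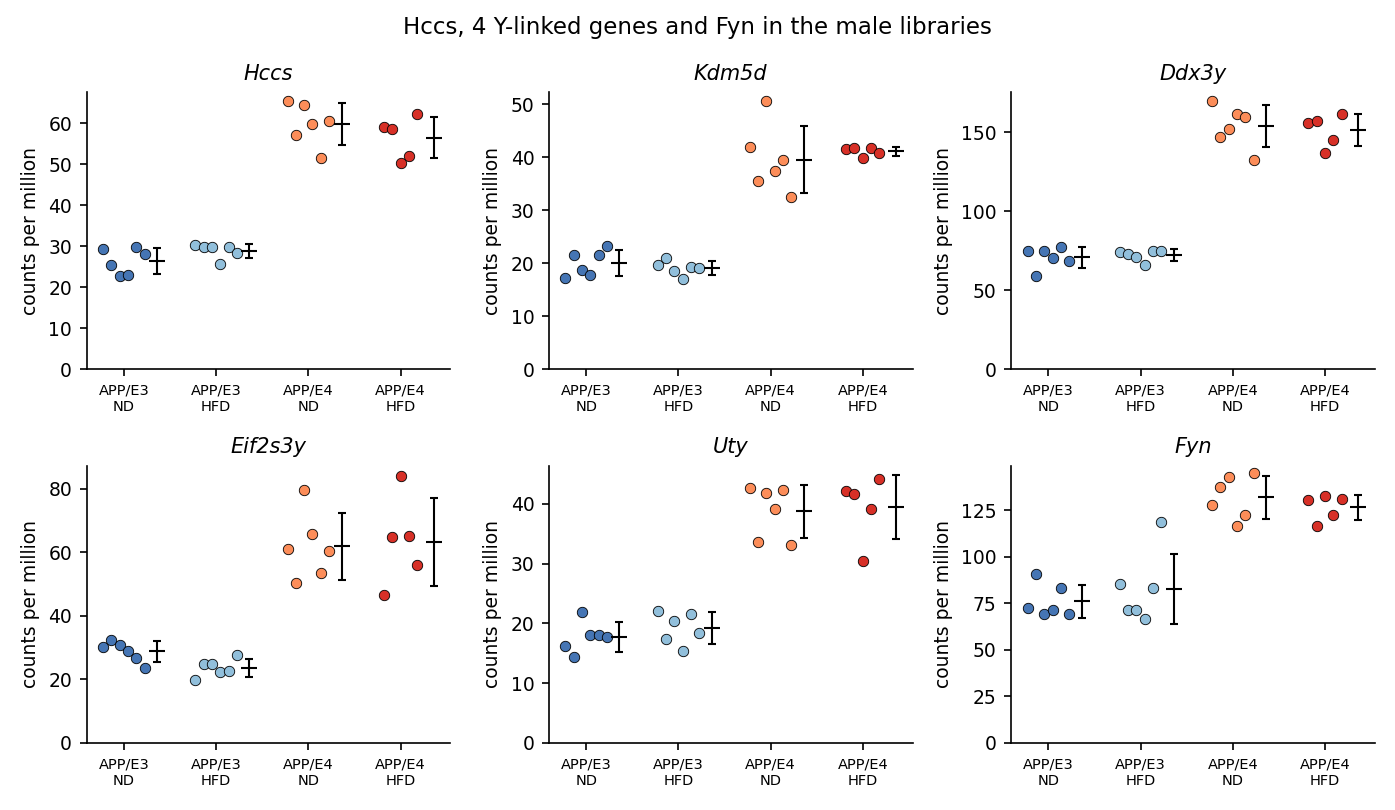
CPM of Hccs, of the Y-linked genes Kdm5d, Ddx3y, Eif2s3y and Uty, and of the kinase Fyn in each library of the 4 male groups, with 1 point per library and the mean ± SD at its right. In each panel both APP/E4 groups lie above APP/E3 ND, with Hccs means of 59.8 CPM (APP/E4 ND) and 56.5 CPM (APP/E4 HFD) against 26.4 CPM (APP/E3 ND).

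Genes of the serine protease inhibitor cluster on chromosome 12 were called higher. Serpina3n, a secreted inhibitor that reactive astrocytes make (gene ID 20716), ran from 14.7 to 29.5 CPM (median 18.8) in APP/E3 ND males and stood at 121, 92.3, 110, 49.4 and 42.9 CPM in APP/E4 HFD males. All 5 were above all 6 controls, with APP/E4 HFD males 4 and 5 well below the other 3. The means were 20.02 ± 5.5 and 83.1 ± 35 CPM, a difference of 2.06 ± 0.26 (SE; edgeR adjusted p = 3.71e-07). Its neighbour Serpina3m (gene ID 20717) had 1 count in the 6 control libraries together and 168 in the 5 APP/E4 HFD libraries, where it stood at 4.14, 4.44, 4.86, 2.03 and 2.20 CPM. The depth-adjusted ratio was 312, with an exact 95% interval of 55.2 to 12376 that covers counting error only (edgeR adjusted p = 1.15e-12). Serpina3h was at 0 in 4 controls and at most at 0.152 CPM, against 0.736, 1.44, 2.10, 3.72 and 2.09 CPM (5.14 ± 0.64, adjusted p = 3.66e-07). Serpina3g went from 0.164 ± 0.18 to 1.29 ± 0.43 CPM (2.44 ± 0.58, adjusted p = 0.0340), without overlap, but of the 11 fits that left out a library it was called in only 2, those without APP/E3 ND male 5 and without APP/E4 HFD male 4 (adjusted p between 0.00883 and 0.0867 over the 11). These are the 4 members of the cluster in the tested set. All but Serpina3n were near 0 in the controls and passed the filter on low counts through other groups. They had almost no room to fall here, so the count of members that rose carries no weight. The copies resemble each other: 19.1% of the 50-base stretches of Serpina3m, 21.9% of Serpina3h, 15.5% of Serpina3g and 6.90% of Serpina3n also occur in another gene, so how reads were split between them is uncertain, least so for Serpina3n.

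For this cluster, windows from 250 bases before to 50 after the start are shown, from RefSeq on GRCm38.p6. They cover Serpina3n (chr12:104406458-104406757, plus strand) and Serpina3g (chr12:104235897-104236196, plus strand). Serpina3m and Serpina3h had no such window in the reference used, so the cluster is covered only in part. Capitals mark the palindrome TTCNNNGAA, the core recognised by STAT factors, on both strands. The Serpina3g window holds 1 match and the Serpina3n window has none of these letters. Among 27025 genes with such a window, 2288 (8.47%) hold at least 1.
Serpina3n: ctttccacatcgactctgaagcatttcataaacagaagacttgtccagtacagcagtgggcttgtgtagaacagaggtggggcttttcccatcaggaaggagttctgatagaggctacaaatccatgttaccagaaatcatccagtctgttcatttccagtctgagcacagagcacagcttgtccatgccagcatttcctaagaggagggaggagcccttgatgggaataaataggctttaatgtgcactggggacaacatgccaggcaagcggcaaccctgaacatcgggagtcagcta
Serpina3g: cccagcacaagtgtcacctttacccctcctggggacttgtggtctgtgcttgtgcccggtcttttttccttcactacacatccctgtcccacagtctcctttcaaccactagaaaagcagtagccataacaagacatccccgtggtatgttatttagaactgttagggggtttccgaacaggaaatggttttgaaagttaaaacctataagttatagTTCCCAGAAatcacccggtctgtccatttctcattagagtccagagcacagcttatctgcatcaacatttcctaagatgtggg

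On chromosome 7, called genes from Rdh13 to Rpl28 changed in both directions. They were 5 of the 16 tested in that stretch of the gene order, beside 0.605% of all tested genes. Both ends of the stretch were set by called genes, so this density was partly fixed by how the stretch was chosen. Ptprh, a receptor tyrosine phosphatase (gene ID 545902), was between 0 and 0.305 CPM (median 0.197) in controls and at 1.56, 2.22, 3.32, 2.03 and 2.09 CPM in APP/E4 HFD males, a rise of 3.4 ± 0.37 (SE; edgeR adjusted p = 6.54e-09). Eps8l1, an actin regulator of the Eps8 family, was between 0.227 and 0.666 CPM against 4.87, 3.66, 1.55, 2.71 and 1.57 CPM (3.1 ± 0.47, adjusted p = 3.4e-05). For both, every APP/E4 HFD male exceeded every control. D630041G03Rik rose from 1.23 ± 0.18 to 4.24 ± 0.99 CPM (1.79 ± 0.27). Rdh13, a mitochondrial retinol dehydrogenase, fell from 37.0 ± 3.0 to 25.4 ± 2.3 CPM, by 0.55 ± 0.10 on the log2 scale (adjusted p = 0.00128), again without overlap. Rpl28, a ribosomal protein, fell from 3.88 ± 1.3 to 1.53 ± 0.53 CPM, by 1.34 ± 0.27 (adjusted p = 0.00576); 19.97% of its 50-base stretches occur in the pseudogene Rpl28-ps1, and without APP/E4 HFD male 5 it was not called (highest adjusted p 0.0552). Oscar, an immunoglobulin-like receptor of osteoclasts and myeloid cells that also lies on chromosome 7, went from at most 0.152 CPM to 1.56, 1.89, 1.88, 1.58 and 1.15 CPM (3.90 ± 0.44, adjusted p = 2.30e-08). In all, 17 of the 1143 genes tested on chromosome 7 were called (1.49%), of which 5 are olfactory mucosa genes and 8 were still called without APP/E3 ND male 3. On chromosome 12, 10 of 553 were called (1.81%), and 8 of them without that library.

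Losses of nearly all counts occurred as well. Gm20186 (gene ID 100504344) was between 2.17 and 3.18 CPM (median 2.53) in the APP/E3 ND males and had no count in any APP/E4 HFD male. Against a floor of 3 counts per library (mean 0.318 CPM) it was at least 8.05-fold lower, with 229 counts against 0 (edgeR adjusted p = 2.44e-11). Ighg2c, the constant region of an immunoglobulin heavy chain (gene ID 404711), was between 3.07 and 6.89 CPM (median 4.20) in controls and at 0.092, 0, 0, 0 and 0 CPM in APP/E4 HFD males. With 381 counts against 1, the ratio was 205 with an exact 95% interval of 36.7 to 8137 (edgeR adjusted p = 1.46e-09); 5.49% of its 50-base stretches are shared with Ighg2b, which makes the split of those reads uncertain. The heavy chain Ighm, by contrast, stayed well detected, at 33.5 ± 8.1 and 19.2 ± 4.2 CPM without overlap, a difference of -0.81 ± 0.25 that was not called (adjusted p = 0.130). Toward the same end of chromosome 12, A530016L24Rik rose by 2.59 ± 0.49 and 2810029C07Rik fell by 1.09 ± 0.21. Ckb, the brain creatine kinase that buffers ATP, fell from 830 ± 120 to 594 ± 76 CPM, by 0.49 ± 0.12 (adjusted p = 0.0361); APP/E4 HFD male 2 at 681 CPM overlapped the lowest control at 650 CPM. Ckb was called in 5 of the 11 fits that left out a library, those without APP/E3 ND males 3 and 4 and APP/E4 HFD males 1, 2 and 3.

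Several calls of moderate size held in all 11 such fits. Fyn, the Src-family kinase of neurons and myelinating cells, ran from 69.0 to 90.9 CPM (median 71.9) in controls and stood at 130, 116, 133, 122 and 131 CPM in APP/E4 HFD males. All 5 lay above all controls (0.73 ± 0.10 SE; edgeR adjusted p = 9.02e-06). Fyn was the only called gene of 7 Src-family kinases and of 48 cell migration genes tested. Fbxo5, an inhibitor of the anaphase-promoting complex, rose from 0.841 ± 0.23 to 2.59 ± 0.56 CPM (1.55 ± 0.31). Pon2, a membrane-bound paraoxonase that lowers oxidative stress, fell from 61.9 ± 8.5 to 39.1 ± 6.6 CPM, by 0.67 ± 0.10 (adjusted p = 5.58e-05). Ica1, a protein of secretory vesicle membranes, fell by 0.48 ± 0.09, and X-linked Tsr2, which acts in ribosomal RNA maturation, fell from 82.3 ± 5.6 to 66.2 ± 1.1 CPM, by 0.32 ± 0.05 (adjusted p = 0.000429). Mfn2, which fuses mitochondria, rose by 0.27 ± 0.05, from 255 ± 19 to 309 ± 13 CPM, and the zinc finger gene Zscan26 rose by 0.36 ± 0.07. In these 6 genes the groups did not overlap either.

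Among the small rises were genes that bind or process RNA, picked out here after their values were seen. Adar, the adenosine deaminase that edits double-stranded RNA, ran from 213 to 244 CPM (median 223) and stood at 313, 280, 261, 299 and 293 CPM, so all 5 APP/E4 HFD males exceeded all controls (0.36 ± 0.06, edgeR adjusted p = 0.000429). Rbm39, a splicing factor, rose from 149 ± 11 to 181 ± 3.6 CPM (0.28 ± 0.06), and Hnrnpu, a nuclear scaffold and RNA-binding protein, from 357 ± 14 to 417 ± 17 CPM (0.22 ± 0.05). Smaller margins were seen for the nucleolar protein Ncl at 0.28 ± 0.07 and the helicase Ddx46 at 0.22 ± 0.06, which were each called in 3 of the 11 fits that left out a library (without APP/E3 ND males 2 and 6 and APP/E4 HFD male 3 for Ncl, and without APP/E3 ND males 4 and 5 and APP/E4 HFD male 1 for Ddx46). Hnrnpu was not called without APP/E4 HFD male 2. No list of RNA-processing genes was drawn up for a count.

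Among microglial genes, 3 of the 28 plaque-associated genes tested were called higher, and none of the 20 homeostatic genes was called. Itgax, the integrin alpha chain CD11c, ran from 0.341 to 1.36 CPM (median 0.859) in controls and stood at 0.368, 1.33, 5.42, 2.93 and 2.93 CPM. APP/E4 HFD male 3 was the highest, and males 1 and 2 were within the control range (1.48 ± 0.36 SE; edgeR adjusted p = 0.0357). Itgax shares 8.02% of its 50-base stretches with Itgad, so a small part of its reads is uncertain. Cst7, the lysosomal protease inhibitor cystatin F, ran from 0.227 to 2.71 CPM (median 1.13) and stood at 1.29, 2.77, 10.4, 4.74 and 2.61 CPM, with male 3 again highest and 2 of 5 within the control range (1.78 ± 0.45, adjusted p = 0.0466). Ccl6, a chemokine of myeloid cells, ran from 1.37 to 2.03 CPM (median 1.73) and stood at 2.21, 3.44, 5.97, 2.03 and 3.24 CPM (0.95 ± 0.23, adjusted p = 0.0388). Without APP/E4 HFD male 3 these differences were 1.02, 1.16 and 0.64 on the log2 scale, with adjusted p of 0.155, 0.202 and 0.164, so that none was called. All 3 were called when APP/E3 ND male 4 was left out and when APP/E4 HFD male 1 was. Leaving out APP/E3 ND male 5 or the second APP/E4 HFD male kept Itgax, and leaving out the fourth kept Ccl6, but none of the 3 was called in the other 6 such fits. With title style as a term, described further on, Itgax and Cst7 missed the threshold (edgeR adjusted p = 0.05195 and 0.0913) and Ccl6 kept its call. All 3 missed it with limma voom (adjusted p = 0.296, 0.123 and 0.0875), with edgeR on the 23 males alone (0.135, 0.101 and 0.101) and on the 11 libraries alone (0.337, 0.317 and 0.258). Clec7a, the beta-glucan receptor dectin-1, had 2.38 ± 1.9 CPM against 0.909 ± 0.39 (1.35 ± 0.37) and was not called (adjusted p = 0.0760). Cybb, the catalytic subunit of the phagocyte NADPH oxidase, gave a steadier rise: it ran from 0.387 to 1.07 CPM (median 0.893) in controls and was at 1.66, 3.33, 3.32, 1.47 and 2.40 CPM, with no overlap (1.56 ± 0.34, adjusted p = 0.0125). It was called in 10 of the 11 fits that left out a library and missed the threshold without APP/E4 HFD male 2 (adjusted p 0.0665) and when the 11 libraries were fitted alone (0.0741).

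Markers shared by all microglia gave values near 0 on the log2 scale. The receptor Trem2 and its adaptor Tyrobp differed by 0.14 ± 0.16 and 0.09 ± 0.16, the complement subunit C1qa by -0.01 ± 0.13, the growth factor receptor Csf1r by 0.04 ± 0.11, and the homeostatic markers Tmem119 and P2ry12 by -0.15 ± 0.12 and -0.10 ± 0.11, none called. APP/E4 HFD male 3 was at 34.0 CPM for Tyrobp and 190 CPM for Csf1r, above the other 4 of its group. The 14 blood and neutrophil markers with counts (11 tested), none at 0 in all 11 libraries, summed to 162 CPM in that library. Their sums were 37.8 to 41.4 CPM in the other 4 and 43.8 to 126 CPM in the controls. The part of blood cells in the microglial values was not tested. Over the 28 tested genes of the plaque-associated list, 24 were higher and 3 were called, with a median of 0.13, beside 48.9% higher and a median of -0.0046 over all tested genes. Without APP/E4 HFD male 3 the count was 18 of 28 with none called. Homeostatic microglial genes were split, 11 of 20 higher (median 0.04), none called.

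Other innate immune genes rose apart from the plaque set. Aim2, a sensor of cytosolic DNA, ran from 1.04 to 1.57 CPM (median 1.20) in controls and stood at 2.67, 3.11, 3.87, 2.82 and 2.51 CPM, all above the controls (1.29 ± 0.28 SE; edgeR adjusted p = 0.0111), and it was called in all 11 fits that left out a library. AI607873, 2 places from Aim2 among the tested genes of chromosome 1, went from 0.213 ± 0.088 to 0.956 ± 0.29 CPM (2.20 ± 0.55, adjusted p = 0.0442), called in 2 of those 11 fits, without APP/E3 ND male 4 and without APP/E4 HFD male 4. Tnfaip6, a secreted hyaluronan-binding protein induced in inflammation, ran from 5.71 to 7.97 CPM (median 6.80) and stood at 13.6, 12.5, 17.6, 10.7 and 12.7 CPM, with no overlap (0.96 ± 0.23, adjusted p = 0.0305, called in 4 of those 11, without APP/E3 ND males 1, 2 and 6 and APP/E4 HFD male 4). The interferon response list stood out by its count but not by calls: 38 of 39 tested genes were higher, with a median of 0.36. In edgeR's test 10 had an unadjusted p under 0.05, beside 1824 of all 15195 tested genes. None of the list was called (smallest adjusted p 0.179, Ifi44). Summed over the list, levels were 209 to 309 CPM in controls and 262 to 334 CPM in APP/E4 HFD males, an overlap. With any 1 library left out, 36 to 38 of the 39 were still higher. Toll-like receptor genes were higher in 16 of 21 (median 0.09), complement genes in 10 of 18 (0.13), antigen presentation genes in 12 of 16 (0.22) and lysosomal genes in 17 of 24 (0.06), none called.

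**Figure D3:**
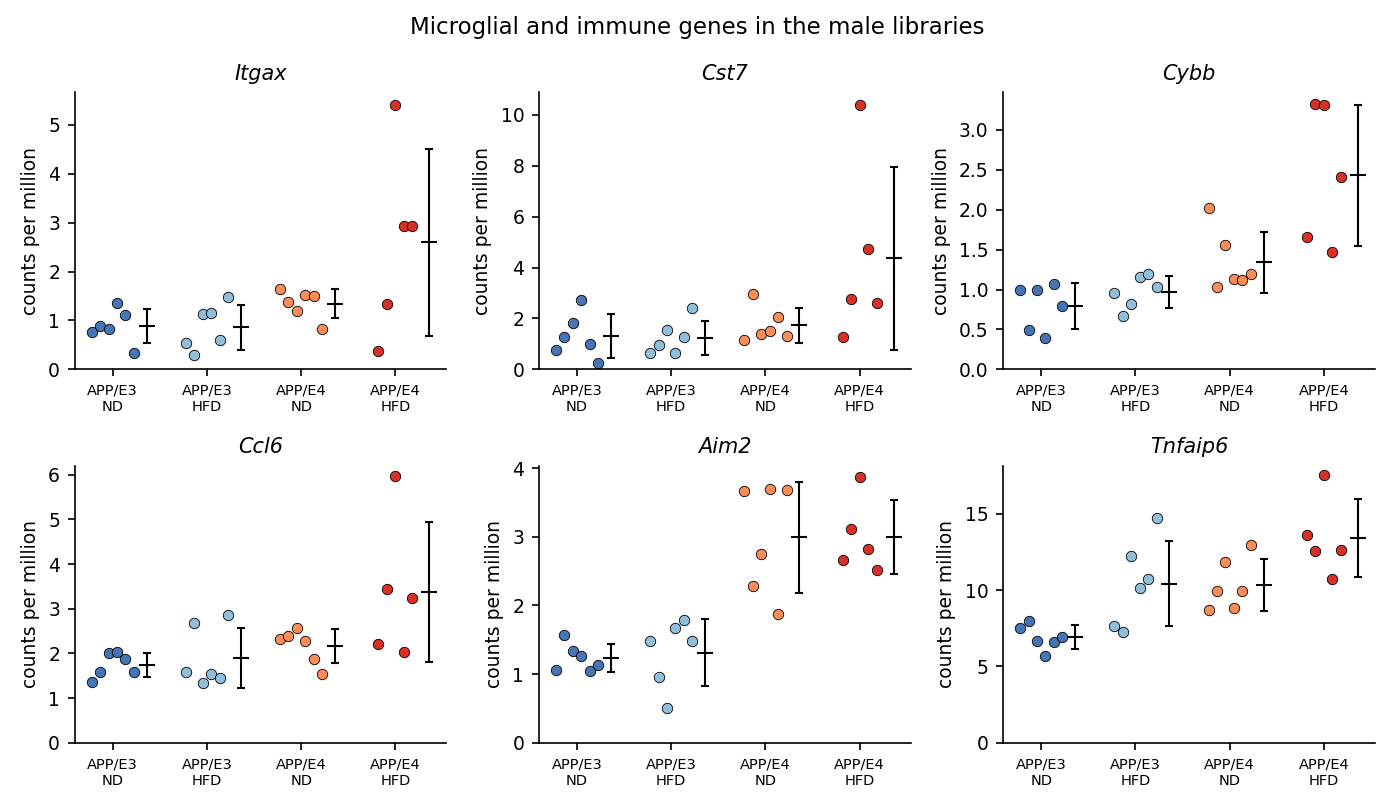
CPM of 6 microglial and immune genes in each library of the 4 male groups, with 1 point per library and the mean ± SD at its right. The highest APP/E4 HFD value of Itgax (5.42 CPM), Cst7 (10.4 CPM) and Ccl6 (5.97 CPM) comes from the same library, number 3, while the 5 APP/E4 HFD values of Cybb, Aim2 and Tnfaip6 all lie above the 6 APP/E3 ND values.

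In astrocytes, Serpina3n was the 1 called gene of 21 reactive genes tested, of which 17 were higher (median 0.20). Gfap, the intermediate filament of astrocytes, ran from 88.0 to 176 CPM (median 115) in controls and was at 165, 179, 203, 169 and 181 CPM; 2 of the 5 lay under the highest control, and the difference of 0.57 ± 0.22 was not called (edgeR adjusted p = 0.281). The complement gene C4b, which astrocytes and microglia make near plaques, differed by 0.56 ± 0.23 and was not called (adjusted p = 0.309), although its groups did not overlap. Of 21 astrocyte identity genes, 15 were lower with a median of -0.06 and none was called.

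A set of very large falls was read mainly in 1 control library. Cyp2a5, a cytochrome P450 of nasal mucosa, was at 372 CPM in APP/E3 ND male 3 and at 15.4 CPM in APP/E3 ND male 5, and at most at 1.25 CPM in the other 4 controls and 1.11 CPM in the APP/E4 HFD males. Bpifb4, Cyp2g1, Ugt2a1, Cyp2f2, Stoml3, Umodl1, Gfy, Sec14l3, Cnga2, Cbr2, Gramd1c and Cnga4 showed the same order, all of them genes that the olfactory epithelium transcribes, including the channel subunits Cnga2 and Cnga4 of odour transduction. These 13 were grouped after their values were seen. Their summed level was 1488 CPM in APP/E3 ND male 3 and 93.2 CPM in APP/E3 ND male 5, while the 41 libraries outside this comparison had a median of 8.50 and a highest value of 81.9 CPM. The fitted log2 differences ran from -8.54 ± 1.91 (Bpifb4) to -2.09 ± 0.51 (Cnga4). Without APP/E3 ND male 3, Bpifb4, Ugt2a1 and Gfy no longer passed the filter on low counts and were not tested. None of the others was called, and Cyp2f2 differed by -2.78 and Umodl1 by -2.60 (edgeR adjusted p = 0.248 and 0.123). Omp, the olfactory marker protein of mature sensory neurons, was at 278 CPM in male 3 and 52.6 CPM in male 5 and was not called (-4.29 ± 1.47, adjusted p = 0.198). The whole comparison without APP/E3 ND male 3 had 46 calls, 31 up and 15 down.

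**Figure D4:**
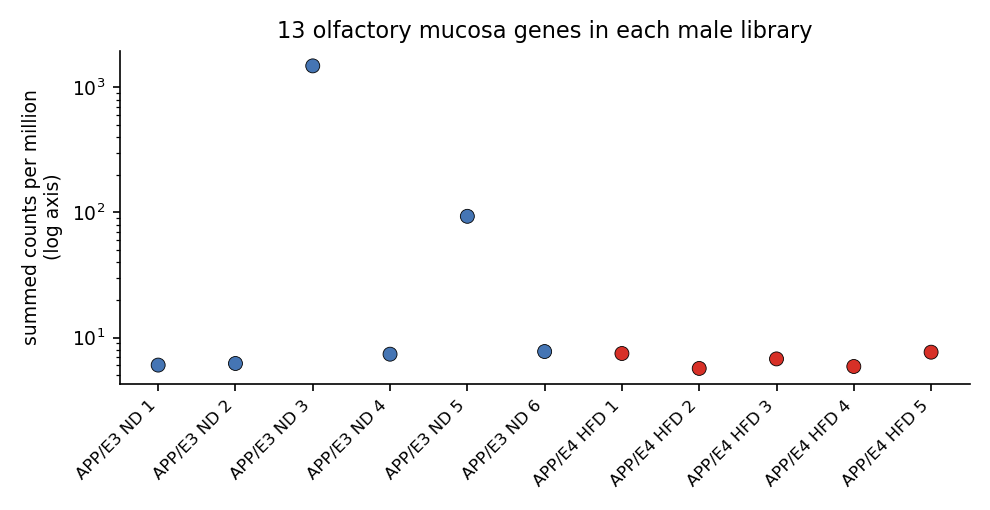
Summed CPM of 13 olfactory mucosa genes, on a log axis, in each of the 11 libraries, with 1 point per library coloured by group. APP/E3 ND male 3 stands at 1488 CPM and male 5 at 93.2 CPM, above the other 9.

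The metallothioneins Mt1 and Mt2, small cysteine-rich proteins that bind zinc and copper and are made mainly by astrocytes in brain, fell together. Mt2 ran from 53.7 to 85.3 CPM (median 57.8) in controls and was at 49.7, 41.8, 48.1, 37.8 and 37.7 CPM, with no overlap, a fall of 0.54 ± 0.13 (SE; edgeR adjusted p = 0.0357). Mt1 ran from 111 to 146 CPM (median 118) and was at 93.4, 89.0, 114, 90.9 and 75.3 CPM, where APP/E4 HFD male 3 overlapped the controls; the fall was 0.42 ± 0.11 (adjusted p = 0.0424). APP/E3 ND male 3 had the highest level of both genes. Without it, Mt2 differed by -0.44 and Mt1 by -0.37, neither called (adjusted p = 0.119 and 0.117). Mt2 also lost its call when APP/E3 ND male 2 was left out, as it did for APP/E4 HFD males 2, 4 and 5, and Mt1 lost its call in these fits and in those leaving out APP/E3 ND male 6 and APP/E4 HFD male 1. These 2 were the called members of the glucocorticoid response list, in which 19 of 23 genes were higher with a median of 0.18, so the called pair went against the count of its list. The windows around their starts are shown, again from RefSeq on GRCm38.p6, for Mt1 (chr8:94178839-94179138, plus strand) and Mt2 (chr8:94172368-94172667, plus strand), with capitals for TGCACNC or TGCGCNC, the core of the metal response element, on both strands. The Mt1 window holds 3 matches and the Mt2 window 4. Of 27025 genes, 6909 (25.6%) hold at least 1 match in such a window and 540 (1.998%) hold 3 or more.
Mt1: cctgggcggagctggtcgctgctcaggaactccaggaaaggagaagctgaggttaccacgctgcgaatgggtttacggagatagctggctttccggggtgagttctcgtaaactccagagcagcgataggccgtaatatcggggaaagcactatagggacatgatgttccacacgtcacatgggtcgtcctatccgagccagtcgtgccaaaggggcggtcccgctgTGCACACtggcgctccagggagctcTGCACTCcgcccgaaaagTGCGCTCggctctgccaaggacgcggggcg
Mt2: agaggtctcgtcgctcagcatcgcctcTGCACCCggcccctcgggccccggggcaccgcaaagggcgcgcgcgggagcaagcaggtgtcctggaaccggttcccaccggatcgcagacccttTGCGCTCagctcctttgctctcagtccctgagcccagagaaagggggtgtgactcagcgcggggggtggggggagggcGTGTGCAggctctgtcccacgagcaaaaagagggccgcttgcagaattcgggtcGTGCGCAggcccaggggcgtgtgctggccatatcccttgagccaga

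Genes of energy metabolism were mostly lower by small amounts. Of 70 tested genes of oxidative phosphorylation, 60 were lower (median -0.11) and none was called. An unadjusted edgeR p under 0.05 was found for 20 of them, beside 1824 of all 15195 tested genes. Cox6a1, a subunit of cytochrome c oxidase, went from 186 ± 23 to 144 ± 11 CPM and gave the smallest adjusted p of the list (-0.37 ± 0.10, edgeR adjusted p = 0.0543). With any 1 library left out, 43 to 61 of the 70 were lower; the lowest count came without APP/E3 ND male 2, whose summed level of 9205 CPM was the highest of the controls (7162 CPM at the lowest), against 7319 to 7952 CPM in the APP/E4 HFD males. Without APP/E4 HFD male 3, 2 of the 70 were called lower, and without APP/E3 ND male 4, 1 was. Fatty acid oxidation genes were lower in 24 of 30 (median -0.12, none called, 21 to 25 with any 1 library left out). Mlycd, which breaks down malonyl-CoA and is on none of the lists, fell from 25.5 ± 2.8 to 20.04 ± 2.2 CPM, by 0.35 ± 0.09 (adjusted p = 0.0446), with overlap, and was called in 3 of the 11 fits, without APP/E3 ND males 1 and 6 and APP/E4 HFD male 1. Cytosolic ribosome genes were lower in 49 of 76 (median -0.06), with Rpl28 the 1 call. Cholesterol and fatty acid synthesis genes were split, 17 of 31 higher with a median of 0.02, and insulin and IGF signalling genes were higher in 17 of 26 (median 0.05), none called in either.

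The lists of neuronal, myelin and immediate early genes gave no call. Immediate early genes, which neuronal activity switches on, were higher in 30 of 33 (median 0.40), none called. Of the 33, 6 had an unadjusted edgeR p under 0.05, beside 1824 of all 15195 tested genes. Egr2, for example, was at 10.7 ± 4.7 CPM in controls and 22.3 ± 7.8 CPM in APP/E4 HFD males (1.10 ± 0.49, edgeR adjusted p = 0.352), and Jun was lower at 51.8 ± 12 and 37.8 ± 2.9 CPM (-0.46 ± 0.20, adjusted p = 0.353). With any 1 library left out, 29 or 30 of the 33 were higher. Myelin genes were higher in 20 of 21 (median 0.22, smallest adjusted p 0.480), with summed levels of 2758 to 4599 CPM in controls and 3974 to 4601 CPM in APP/E4 HFD males. Transcription and chromatin genes were higher in 49 of 57 (median 0.09), excitatory neuron genes in 10 of 21 (-0.03), inhibitory neuron genes in 6 of 19 (-0.06) and synaptic vesicle genes in 9 of 22 (-0.06). Markers of neighbouring regions varied between libraries: summed striatal markers ran from 738 to 4387 CPM in controls and from 696 to 3708 CPM in APP/E4 HFD males, and olfactory bulb markers were lower in 14 of 15 (median -0.46), at 744 to 1183 and 709 to 824 CPM. Without APP/E3 ND male 5 the bulb markers were lower in 8 of 15. Summed choroid plexus markers were at 239 to 270 and 265 to 301 CPM (5 of 13 tested higher). Hippocampus and thalamus markers were at 310 to 434 and 259 to 416 CPM (7 of 15 higher). Mural and fibroblast markers were at 445 to 1234 and 820 to 1543 CPM (19 of 26 higher). Endothelial markers were at 983 to 1189 and 894 to 1226 CPM (15 of 23 higher). None of these was called. The part of these regions and cells in the other results was not tested.

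**Figure D5:**
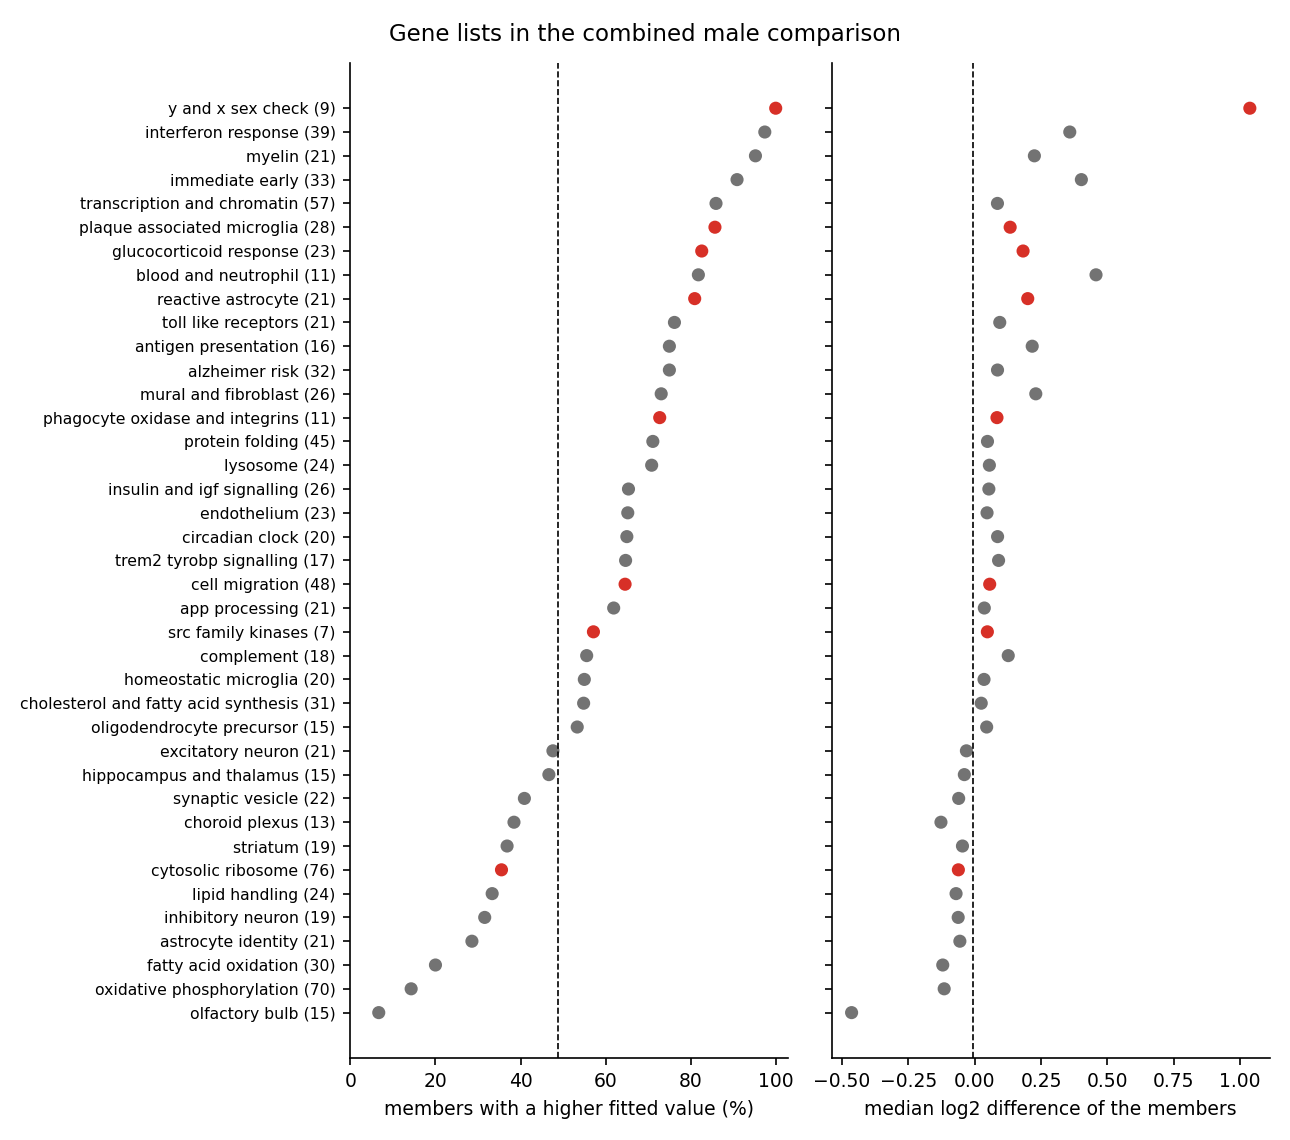
For each of the 39 gene lists, the left panel gives the percent of tested members that were higher in APP/E4 HFD males, and the right panel the median log2 difference; the dashed lines mark all 15195 tested genes (48.9% and -0.0046), the number of tested members follows each name, and red marks a list with at least 1 called gene. The list that checks sex, with the 4 Y-linked genes called, is topmost (9 of 9 higher); interferon response (38 of 39 higher), myelin (20 of 21) and immediate early genes (30 of 33) lie far right, and olfactory bulb markers (1 of 15) and oxidative phosphorylation (10 of 70) far left; no p-value is attached to a list.

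The other male groups split the difference into a genotype step on chow (APP/E4 ND minus APP/E3 ND) and a diet step within APP/E4 (APP/E4 HFD minus APP/E4 ND), which add up to it by construction and share its libraries. The genotype step had 61 calls (0.401%), 29 up and 32 down, and 31 without APP/E3 ND male 3. The diet step had 0 calls (0%) by edgeR, with 555 genes at an unadjusted p under 0.05 and a smallest adjusted p of 0.863; DESeq2 called 1 gene, limma voom 0, and edgeR 1 without APP/E4 HFD male 1. Hccs gave 1.14 in the genotype step and -0.06 in the diet step, Ddx3y 1.09 and -0.0023, Serpina3n 2.24 and -0.18, Ptprh 3.89 and -0.48, and Fyn 0.76 and -0.04. Their levels in APP/E4 ND males were already near those of APP/E4 HFD males, for example 59.8 ± 5.1 CPM for Hccs and 95.4 ± 15 CPM for Serpina3n (n = 6). Aim2 gave 1.28 and 0.01 and stood at 2.99 ± 0.81 CPM in APP/E4 ND males. The called plaque-associated genes divided otherwise: Itgax gave 0.52 and 0.96, Cst7 0.41 and 1.37, and Ccl6 0.30 and 0.65. Without APP/E4 HFD male 3 their diet steps were 0.50, 0.75 and 0.34, while their genotype steps were still 0.52, 0.41 and 0.30. The oxidase gene Cybb gave 0.71 and 0.85, and a diet step of 0.71 without that library. In APP/E4 ND males Itgax was at 1.34 ± 0.29 CPM, Cst7 at 1.73 ± 0.68 CPM and Ccl6 at 2.16 ± 0.38 CPM. None of these diet steps was called (edgeR adjusted p = 0.994 for Itgax), and the genotype steps of these 4 genes were not called either. Mt1 gave -0.19 and -0.23, and Mt2 -0.20 and -0.34, neither step called.

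The remaining male steps were diet within APP/E3, with 0 calls (0%) and a smallest adjusted p of 0.0748 by edgeR (2064 genes at an unadjusted p under 0.05; DESeq2 called 6 and limma voom 0, and edgeR called 9, 3, 7 and 1 without APP/E3 ND males 1, 2, 4 and 6), and genotype on HFD, with 34 calls (0.224%), 26 up and 8 down, and 21 calls without APP/E4 HFD male 3. Mt2 was at 46.9 ± 5.0 CPM in APP/E3 HFD males, a diet difference of -0.41 that was not called, and Tnfaip6 stood at 10.4 ± 2.8 CPM there and at 10.4 ± 1.7 CPM in APP/E4 ND males, between the 6.90 ± 0.79 and 13.4 ± 2.5 CPM of the compared groups. The excess of the combined difference over the sum of the genotype step on chow and the diet step in APP/E3 was tested for each gene. It had 0 calls (0%) by edgeR, with 702 genes at an unadjusted p under 0.05 and a smallest adjusted p of 0.850; DESeq2 and limma voom also called 0. For Itgax the excess is the gap between a combined 1.48 and steps of 0.52 and -0.11, and for Cst7 between 1.78 and steps of 0.41 and -0.01; neither excess was called. Without APP/E4 HFD male 3 the excess went from 1.07 to 0.61 for Itgax and from 1.38 to 0.76 for Cst7.

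The same contrast in females, which shares no library with the males, had 154 calls (1.01%), 77 up and 77 down. Of the 92 male calls, 26 were also called in females (28.3% of the male and 16.9% of the female list), 16 up and 10 down, each in the same direction. In all, 78 of the 92 had the same sign, but the same-sign share over all tested genes was not counted. The 92 include the 4 Y-linked genes, whose sign in females means nothing. The shared calls included Serpina3n (2.21 ± 0.23 in females), Serpina3m (4.90 ± 0.41), Ptprh (2.65 ± 0.32), Fyn (0.72 ± 0.09), Gm20186, Ighg2c, Pon2 and Rdh13. They also included the plaque-associated Itgax (1.62 ± 0.32, edgeR adjusted p = 0.00283), Cst7 (1.71 ± 0.37, adjusted p = 0.0102) and Ccl6 (1.18 ± 0.20, adjusted p = 0.000445). For example, Cst7 was at 2.72 ± 1.5 CPM in APP/E3 ND and 8.80 ± 3.2 CPM in APP/E4 HFD females. Clec7a passed the test in females (1.52 ± 0.31, adjusted p = 0.00443) with a difference like the 1.35 ± 0.37 of males. Mt2 differed by -0.16 ± 0.11 and Tnfaip6 by 0.59 ± 0.20 in females, neither called, and Spty2d1, a histone chaperone gene that rose by 0.49 ± 0.09 in males, differed by 0.08 ± 0.08. None of these sex differences passed the test of the difference itself, which called Hccs alone and had 591 genes at an unadjusted p under 0.05; DESeq2 called 7.

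Genes of the amyloid pathway and of Alzheimer risk were close to level. Reads assigned to App, which would include any from a transgene similar enough to map, stood at 4051 ± 301 CPM in controls and 4411 ± 221 CPM in APP/E4 HFD males (0.12 ± 0.09, edgeR adjusted p = 0.645). Reads assigned to Apoe were at 20.3 ± 2.9 and 16.4 ± 3.4 CPM (-0.31 ± 0.11, adjusted p = 0.222). Of 21 genes of APP processing, 13 were higher (median 0.04), and of 32 risk genes 24 were higher (median 0.09), none called.

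Library titles are of 2 styles, with and without a closing letter for sex. Every female title has the letter and only male titles lack it, so a term for title style is estimated from the males alone. The levels of 333 pseudogenes sort the libraries into 3 read classes. Why some titles lack the letter, and what the classes mark, is not given in the sources used here. Titles carry a letter in APP/E3 ND males 2 and 3 and APP/E4 HFD males 2, 3 and 4. The only lettered controls are thus the library farthest from its group and the library high in olfactory mucosa genes and highest in Mt2. Falls called within the lettered libraries rest on these controls. Read class 3 holds APP/E3 ND males 1 and 6 and APP/E4 HFD males 1 and 5, and class 1 the other 7. Within class 1 alone, 19 genes were called by edgeR, 13 up and 6 down, of which 18 were among the 92, and within the lettered libraries alone 72 were called, 10 up and 62 down, of which 31 were among the 92. Hccs gave 1.08 ± 0.11 within class 1 and 1.16 ± 0.14 within the lettered libraries, both called. Serpina3n gave 1.94 ± 0.28 and 1.90 ± 0.43, both called. Itgax gave 1.59 ± 0.37 and 1.90 ± 0.49, Cybb 1.78 ± 0.46 and 1.92 ± 0.64, and Fyn 0.65 ± 0.15 and 0.63 ± 0.17, none of them called in these smaller sets. Mt2 gave -0.62 ± 0.17 and -0.81 ± 0.20, called in the lettered libraries only. With the title style as a term over all 52 libraries, 251 genes were called, 106 up and 145 down, including 90 of the 92; those lost were Itgax and Cst7.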

How the data were processed

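Frontal cortex RNA was sequenced from 52 mice's libraries, and the gene table holds raw counts deposited by the authors for 15692 genes, with 1 column for each library. Subread, featureCounts, limma, edgeR 3.14.0 and the mm9 build are named per the submitters' processing notes; their order, the use of strand and the treatment of reads with several matches are not stated in the sources. Per the labels' protocols, RNA came from perfused mice and libraries from an Illumina mRNA kit. From the counts, 15195 genes were tested in edgeR 4.0.16 (R 4.3.3) after its expression filter removed 497, with TMM scaling and the robust quasi-likelihood fit of 1 mean per group over all 52 libraries. P-values were adjusted by Benjamini and Hochberg over all tested genes within each contrast. Calls are those with an adjusted p under 0.05. CPM are counts scaled to the library total. Fitted log2 differences are those of the edgeR fit at its default prior count, and the log2 levels behind the library distances carry a prior count of 2.

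In the table, 24 altered gene symbols were restored, and 15448 gene IDs matched the RefSeq GRCm38.p6 table, used only for names, chromosomes and gene order. No pair of libraries of a group was a duplicate (lowest chi-square per gene 4.41 over 25 pairs). Intervals on counts cover counting error only. The libraries, gene lists and named genes were chosen with earlier results of these data known. Named genes were the 12 largest rises and 12 largest falls with a mean of at least 1 CPM, up to 4 called members of each list or its members with the smallest p, genes called for the excess or for males minus females, and 19 fixed genes. Genes outside this rule are said to be chosen after their values were seen, or serve as neighbours, homologs or examples of a list. A few genes that the rule takes are not reported here. Alternatives were DESeq2 1.42.0, its size factors, limma 3.58.1 voom, no filter, each of the 11 libraries left out, fewer libraries in the fit, and terms for title style and read class; analyses of read class 1 alone, and without pairs of APP/E3 ND males, were added after the data were seen. The fit was tested on simulated data.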

Additional observations from a re-analysis of the deposited data

Results flagged for a closer look

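The combined difference of Hccs in males exceeded that in females by 1.006 on the log2 scale, tested as an interaction. In 31 of 144 groups checked (72 genes, each in both groups), 1 library stood apart from the other 4 or 5 by Dixon's criterion. Chance meets it in about 1 in 20 groups of normally spread values, but that rate is no yardstick here. Olfactory mucosa genes such as Cyp2a5 were named for falls that came mainly from 1 library. The flags of Serpina3m and Ighg2c rest on 1 count each.

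APP/E3 ND male 3 was the highest of its group for Cyp2a5 (372 CPM), Omp (278 CPM), Bpifb4 (221 CPM), Cyp2g1 (201 CPM), Sec14l3 (105 CPM), Stoml3 (100 CPM), Cyp2f2 (91.8 CPM), Ugt2a1 (76.3 CPM), Umodl1 (72.8 CPM), Cbr2 (72.8 CPM), Gfy (69.5 CPM), Cnga2 (49.5 CPM), Gramd1c (30.5 CPM) and Cnga4 (26.7 CPM), all genes of the olfactory mucosa. The same library was also apart for Mt2 (85.3 CPM) and Eps8l1 (0.666 CPM). APP/E4 HFD male 3 was the highest for the microglial genes Csf1r (190 CPM) and Tyrobp (34.0 CPM) and the lowest for Mfn2 (286 CPM) and Rbm39 (175 CPM). APP/E3 ND male 2 was the highest for Rpl28 (6.49 CPM), Ica1 (57.1 CPM) and 2810029C07Rik (15 CPM) and the lowest for Spty2d1 (22.4 CPM).

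Single libraries stood apart for the other genes. These were APP/E3 ND male 1 for Rbm39 (128 CPM) and Serpina3h (0.152 CPM), male 4 for Rdh13 (42.7 CPM) and Ifi44 (1.26 CPM), male 5 for Gfap (176 CPM) and male 6 for Serpina3m (0.114 CPM). In the APP/E4 HFD males it was male 1 for Ighg2c (0.092 CPM).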

How the results depend on the processing

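The 92 calls became 143 with DESeq2, 251 with title style as a term, 24 when the 11 libraries were fitted alone and 19 within read class 1; without APP/E3 ND males 2 and 3 there were 36, and without males 3 and 5 there were 61 (read class 1 and both of these pairs were chosen after seeing the data). With 1 library left out at a time the calls ran from 35 to 120 for the combined difference in males, 31 to 70 for genotype on chow, 21 to 40 for genotype on HFD, 0 to 9 for diet in APP/E3, 0 to 1 for diet in APP/E4 and 141 to 198 in females, and stayed at 1 for males minus females and 0 for the excess. DESeq2 called 7 genes for males minus females, 99 for genotype on chow, 1 for diet in APP/E4, 6 for diet in APP/E3 and 244 in females. Diet in APP/E3 had 4 calls with no filter, and females had 234 with read class as a term. The cause was not tested.

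Without APP/E3 ND males 3 and 5 the sign reversed for Cyp2a5 (0.0046), Stoml3 (0.77), Cnga2 (0.46), Cbr2 (0.49) and Omp (1.42), since those libraries held nearly all of their counts. Values near 0 that were not called also changed sign. With 1 library left out, Trem2 ran from -0.040 to 0.23, Tyrobp from -0.20 to 0.21 and Csf1r from -0.080 to 0.078, each lowest without APP/E4 HFD male 3, and Csf1r was also below 0 without APP/E3 ND male 2. Tyrobp was at -0.032 with title style as a term. C1qa was at 0.091 in lettered libraries, 0.14 in read class 1, 0.021 without APP/E3 ND males 2 and 3, and -0.14 to 0.061 with 1 library left out. No paired analysis was possible because replicate numbers follow accession order and pair nothing. Depth limits genes under about 1 CPM, where the smallest libraries hold few counts.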
